A study of Mus musculus with 8 samples.

Results

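The numbered Zfp genes are the mouse genes whose symbol is Zfp followed by a number and at most 1 letter, here without the ES cell marker Zfp42. They were picked by symbol alone, and 293 of the 15267 genes measured met the rule. The rule uses no expression value, but it is a rule of names. It takes in a few proteins that are not classical zinc finger transcription factors, such as the mRNA decay factor Zfp36 and the ribosome-linked ubiquitin ligase Zfp598. Zinc finger genes with other names (Zbtb, Zscan, Zkscan, Prdm, Zic and similar symbols), of which 91 were measured, served as the comparison class.

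Most proteins of the family bind DNA through rows of C2H2 zinc fingers. Many also carry a KRAB domain, which recruits the corepressor Trim28 and with it the histone methyltransferase Setdb1, so that bound loci gain heterochromatin. In ES cells such proteins are known for silencing retroelements and for keeping DNA methylation at imprinted loci. Their genes lie in clusters of close paralogues, and near-identical neighbours may not be fully told apart by array probes.

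All RNA came from E14Tg2a, a line of mouse embryonic stem (ES) cells, transfected with an siRNA duplex. The control duplex was directed at firefly luciferase, a gene that mouse cells lack, and 2 different duplexes, Tet1 siRNA #1 and #2 (here siRNA 1 and siRNA 2), were directed at Tet1. Tet1 is a dioxygenase that oxidises methylated cytosine in DNA to hydroxymethylcytosine, and the series title frames the question as the effect of its acute loss on LIF/Stat3 signalling and ES cell identity. The 8 Affymetrix arrays formed 4 groups of 2. RNA was taken 96 h after the control duplex, siRNA 1 or siRNA 2, and also 48 h after siRNA 1. No control of 48 h was analysed here. Whether the arrays of 1 group stand for different cultures is not given in the labels, and the spread behind each p-value may therefore be technical. Tet1 itself was not analysed here.

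The 8 arrays had medians of 6.68 to 6.72 on the log2 scale, and within groups Pearson's r across genes was 0.997 to 0.998. The 10 ES cell markers had array means of 11.56 to 12.54, so the labelled cell type was borne out on all 8 arrays. The 96 h arrays also carried transcripts of lung. The mean of 21 measured lung markers (26 listed) was 6.91 to 7.38 on the 6 arrays of 96 h and 5.45 on both arrays of 48 h. The club cell secretoglobin Scgb1a1 read 11.95 to 12.83 on the 96 h arrays and 3.71 and 4.03 at 48 h. In siRNA 1 at 96 h against 48 h, 19.2% of all genes were higher and 18.5% lower. Of the 21 lung markers 12 were higher and 0 lower there. Of 10 fibroblast markers 7 were higher and 1 lower, and of 6 blood and endothelial markers 3 were higher and 1 lower. The ES cell markers ran the other way, with 0 of 10 higher and 7 lower, among them Klf4 (−2.33), Tbx3 (−1.87) and Nanog (−1.65 on the log2 scale). At 48 h against the control, 6 of the 10 ES cell markers were higher and 0 lower, beside 17.1% and 18.4% of all genes. Between the siRNA and control arrays of 96 h, 1836 of all 15267 genes were higher and 1864 lower. Of the 21 lung markers 0 were higher and 4 lower there, and of the 10 fibroblast markers 2 were higher and 1 lower. Of the 6 blood and endothelial markers 2 were higher and 0 lower, and of the 10 ES cell markers 2 were higher and 6 lower. Every comparison with the 48 h arrays below therefore runs beside these differences in lung, fibroblast and ES cell markers, and their part in the results was not tested.

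The promoters of 4 members are shown because their transcript levels moved and because Tet1 acts on CpG sites. Zfp677 and Zfp354b gave the largest rise and fall between siRNA and control among the members open to this choice. The choice was restricted to a part of the members, and Zfp608 was outside it. Among all members Zfp608, Zfp711 and Zfp612 rose by more than Zfp677, and Zfp704 fell by more than Zfp354b. The promoters of these members are not shown. Zfp57 keeps imprints, and Zfp605 differed widely between 96 h and 48 h. Each window runs from 250 bases before to 50 after the first listed start, on the gene's strand, in build GRCm38.p6, with CpG sites in capitals.
Zfp677, chr17:21383498-21383797, plus strand: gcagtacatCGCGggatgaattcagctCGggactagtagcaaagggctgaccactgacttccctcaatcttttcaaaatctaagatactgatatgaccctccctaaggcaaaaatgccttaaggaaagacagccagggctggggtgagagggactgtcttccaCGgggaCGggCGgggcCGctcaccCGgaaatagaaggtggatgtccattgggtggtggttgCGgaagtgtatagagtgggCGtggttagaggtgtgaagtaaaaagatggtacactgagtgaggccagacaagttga
Zfp354b, chr11:50931586-50931885, minus strand: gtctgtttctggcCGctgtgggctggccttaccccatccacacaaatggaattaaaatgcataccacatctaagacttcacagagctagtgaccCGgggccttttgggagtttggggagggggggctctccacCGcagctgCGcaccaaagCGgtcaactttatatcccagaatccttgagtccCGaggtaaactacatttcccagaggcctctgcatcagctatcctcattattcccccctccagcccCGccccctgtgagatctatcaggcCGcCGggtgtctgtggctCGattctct
Zfp57, chr17:37003416-37003715, plus strand: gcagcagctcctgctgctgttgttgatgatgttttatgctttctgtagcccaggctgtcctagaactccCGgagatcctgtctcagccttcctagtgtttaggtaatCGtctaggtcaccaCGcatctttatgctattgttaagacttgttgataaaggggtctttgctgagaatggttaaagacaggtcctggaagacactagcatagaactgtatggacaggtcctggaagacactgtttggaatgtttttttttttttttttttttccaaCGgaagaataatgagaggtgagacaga
Zfp605, chr5:110109842-110110141, plus strand: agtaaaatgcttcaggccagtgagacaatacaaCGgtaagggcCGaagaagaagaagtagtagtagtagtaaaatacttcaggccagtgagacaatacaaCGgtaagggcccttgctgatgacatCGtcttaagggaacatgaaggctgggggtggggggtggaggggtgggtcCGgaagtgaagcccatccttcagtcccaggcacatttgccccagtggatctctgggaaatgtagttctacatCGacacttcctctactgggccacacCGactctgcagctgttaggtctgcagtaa
The Zfp677 and Zfp354b windows hold 10 CpG sites each, the Zfp605 window 7 and the Zfp57 window 4. Their ratios of observed to expected CpG were 0.528, 0.439, 0.365 and 0.295 in that order. Over the 244 members with a promoter in the table the median ratio was 0.658, beside 0.694 over the 12273 genes measured that have one. The median GC content was 55.7% beside 59.0%.

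The first question was which members differ after 96 h of Tet1 siRNA. Against the control, 43 of 293 members rose and 37 fell with both siRNAs averaged, which is 27.3% of the members beside 24.2% of all genes. Of all 15267 genes, 1836 rose and 1864 fell, so that both directions were about as common there too. The median log2 difference was −0.035 over the members and −0.021 over all genes, and the distributions lay close together. With no fold threshold the numbered Zfp genes as a class thus moved about as often as other genes, in both directions. At 1.5-fold or more, 10 of 293 members were called, a smaller share than the 875 of 15267 genes (5.73%). Among the 91 zinc finger genes with other names 7 rose and 19 fell with no fold threshold (7.69% and 20.9%). Of these 91 genes, 7 were called at 1.5-fold or more. With control replicate 1 left out 41 members were called, and with control replicate 2 left out 40, while 25 members were called whichever single array was left out.

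**Figure D1:**
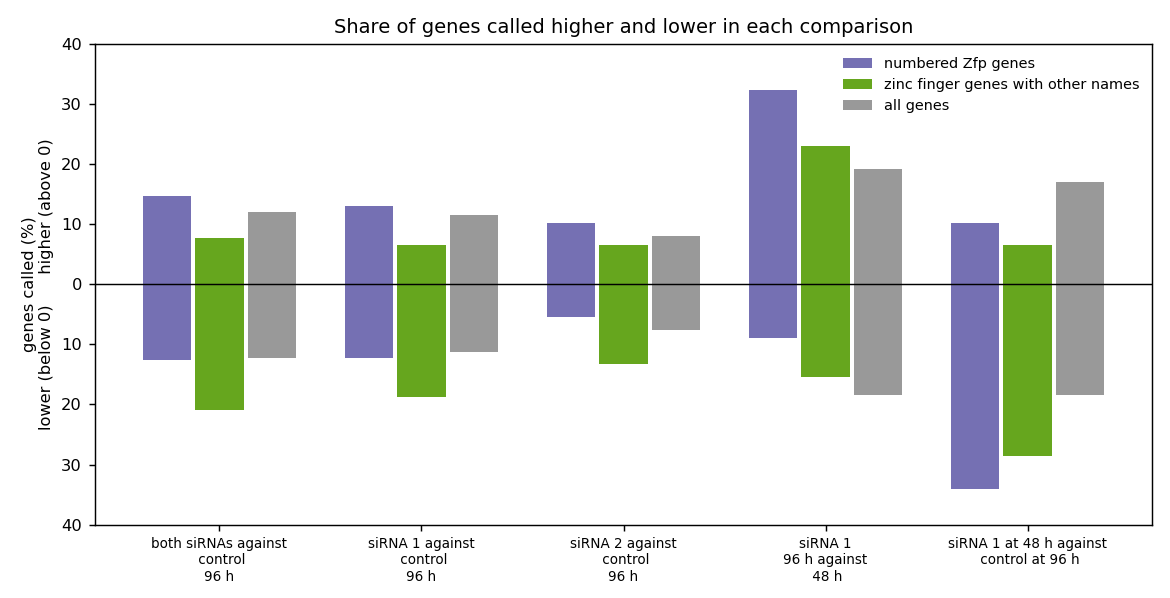
Percent of genes called higher (bars above 0) and lower (bars below 0) at an adjusted p below 0.05 in 5 comparisons, for the 293 numbered Zfp genes, the 91 zinc finger genes with other names and all 15267 genes. The members lie near all genes in the comparisons of siRNA with control at 96 h, with 14.7% higher and 12.6% lower for both siRNAs. The members depart from all genes in the comparisons with the 48 h arrays, with 32.4% higher at 96 h than at 48 h. The zinc finger genes with other names had 23.1% higher there. At 48 h against control 28.6% of them were lower, beside 34.1% of the members.

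The largest rises and falls were picked among called members whose siRNA and control arrays of 96 h do not overlap. That separation is thus part of the choice and not a further result. The highest rises among members were those of Zfp608 and Zfp711. Zfp608 is known in mouse thymocytes as a regulator of the recombination-activating genes. It read 6.62 and 6.57 on the control arrays, 7.90 and 7.80 with siRNA 1, 7.54 and 7.73 with siRNA 2, and 6.09 and 5.93 at 48 h. All 4 siRNA arrays of 96 h lay above both controls, and both 48 h arrays lay below them. The rise at 96 h was 1.15 ± 0.083 on the log2 scale (SE, 2.22-fold, adjusted p = 7.3e-05).

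Zfp711, an X-linked gene whose human counterpart partners the histone demethylase PHF8 and is mutated in intellectual disability, read 6.50 and 6.59 in controls. It read 7.78 and 7.72 with siRNA 1, 7.69 and 7.52 with siRNA 2, and 6.94 and 6.81 at 48 h. Every siRNA array of 96 h lay above both controls, with the 48 h arrays between. The rise was 1.14 ± 0.078 (2.20-fold, adjusted p = 6.1e-05).

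Of the next members by size, Zfp800 is known in mouse for pancreas development. It read 5.72 and 5.67 in controls, 6.40 and 6.32 with siRNA 1, 6.38 and 6.25 with siRNA 2, and 5.96 and 5.93 at 48 h. All siRNA arrays of 96 h lay above both controls, with the 48 h arrays between, and it rose by 0.64 ± 0.068 (1.56-fold, adjusted p = 0.000414). Zfp612 rose by 0.83 ± 0.15 from control levels of 6.84 and 6.35 that lay further apart than those of the other members named so far (adjusted p = 0.00477). Zfp946, from a cluster on chromosome 17, rose by 0.65 ± 0.11 (adjusted p = 0.00365). Zfp105, Zfp956 and Zfp560 rose by 0.56 ± 0.071, 0.53 ± 0.069 and 0.51 ± 0.087. These members, with Zfp608 and Zfp711, were called under every alternative that held them and with any single array left out. Zfp677 rose by 0.81 ± 0.20 (adjusted p = 0.0204) and Zfp777 by 0.47 ± 0.095 (adjusted p = 0.00877). Zfp777 was not called without control replicate 2 (adjusted p = 0.0654). Zfp677 was not called without control replicate 2, siRNA 1 replicate 1 or siRNA 2 replicate 2 (adjusted p = 0.139, 0.0538 and 0.0531).

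The falls were led by Zfp704, at 7.63 and 7.48 in controls, 6.49 and 6.43 with siRNA 1, and 6.29 and 6.64 with siRNA 2. At 48 h it read 7.42 and 7.43, just under the lower control. The siRNA arrays of 96 h thus lay below both other groups, and the fall at 96 h was −1.09 ± 0.10 (2.13-fold, adjusted p = 0.000234). Zfp354b read 5.31 and 5.17 in controls, 4.15 and 4.06 with siRNA 1, 4.52 and 4.58 with siRNA 2, and 4.40 and 4.24 at 48 h. All siRNA arrays of both times were below the controls, with a difference at 96 h of −0.91 ± 0.078 (adjusted p = 0.000154). Zfp28, a KRAB zinc finger gene, read 6.01 and 5.94 in controls and 4.76 to 5.25 on the siRNA arrays of 96 h, a fall of −0.87 ± 0.12 (adjusted p = 0.00156).

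Zfp810 fell by 0.48 ± 0.089, Zfp74 by 0.48 ± 0.063 and Zfp385a, a partner of p53, by 0.45 ± 0.082 on the log2 scale, with adjusted p of 0.00609, 0.00122 and 0.00597. These 3, with Zfp704, Zfp354b and Zfp28, were called under every alternative that held them. Zfp607b (−0.55 ± 0.14, adjusted p = 0.0251), Zfp59 (−0.46 ± 0.091, adjusted p = 0.00827) and Zfp579 (−0.45 ± 0.12, adjusted p = 0.0286) fell as well but lost their calls under some alternatives. Zfp59 was not called without control replicate 2 (adjusted p = 0.0686). Zfp579 was not called without control replicate 1, siRNA 1 replicate 1, or either siRNA 2 array (adjusted p from 0.0547 to 0.184). Zfp607b was not called without either control, siRNA 1 replicate 2 or either siRNA 2 array (adjusted p from 0.0525 to 0.108).

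**Figure D2:**
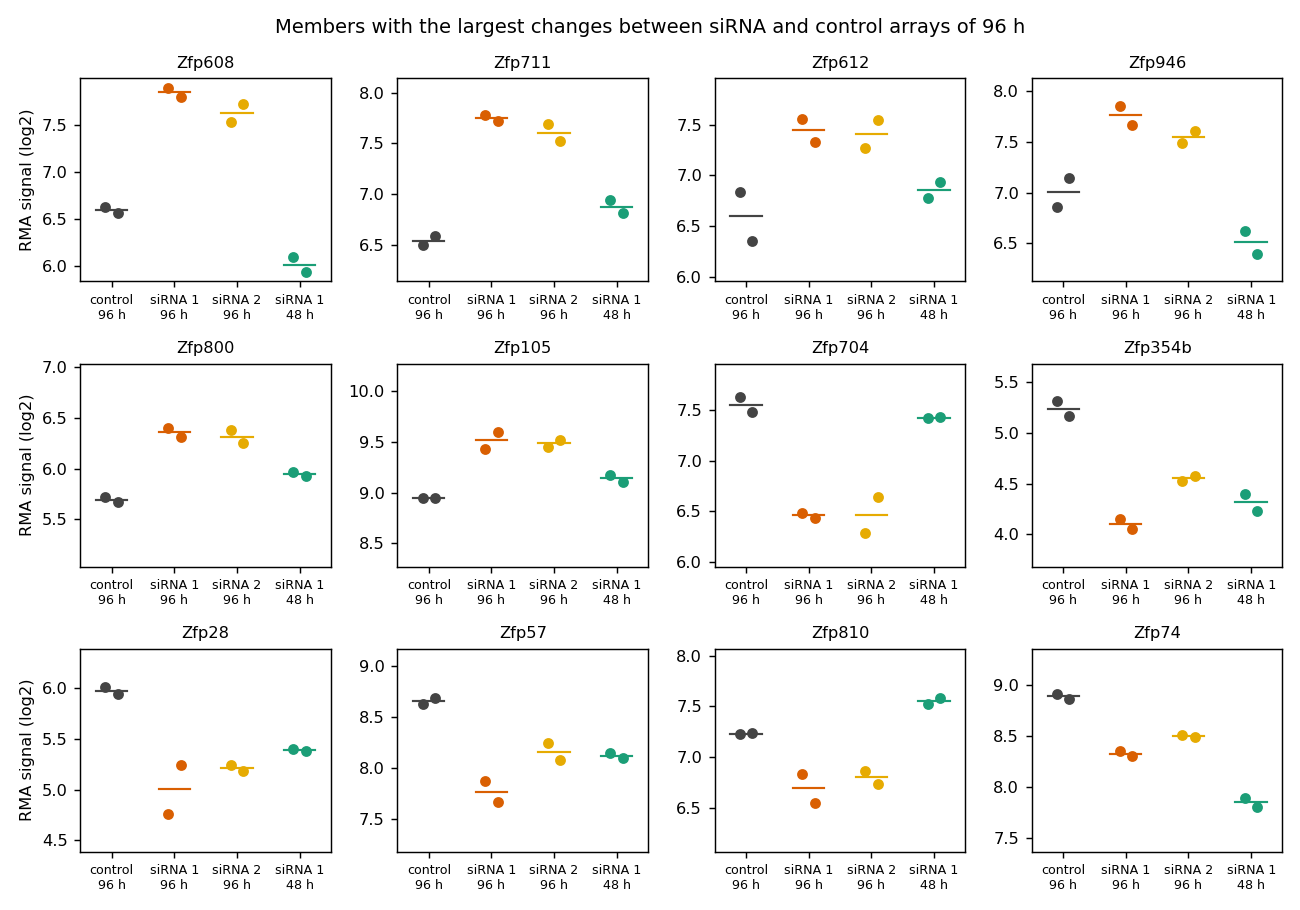
RMA signal (log2) of 12 members on each of the 8 arrays, with points for arrays and lines for the mean of the 2 arrays of a group; each panel has its own range on the vertical axis. The 12 were chosen among called members whose siRNA and control arrays of 96 h do not overlap. Zfp677 and Zfp607b differed by more than some members drawn but are not shown. Both lost their calls with some single arrays left out. The 4 siRNA arrays of 96 h therefore lie on 1 side of both controls in every panel. The 48 h arrays lie on the opposite side of the controls for Zfp608, Zfp946 and Zfp810.

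The members include known repressors of imprinted loci and retroelements, of which 11 of 15 listed were measured. Among them 1 rose, 3 fell and 7 were not called, with a median log2 difference of −0.054. Over all genes 1836 of 15267 rose and 1864 fell in this comparison. Zfp57 binds methylated imprinting control regions and recruits Trim28 to them. It read 8.63 and 8.69 in controls, 7.87 and 7.66 with siRNA 1, 8.25 and 8.08 with siRNA 2, and 8.15 and 8.09 at 48 h. Both times and both duplexes were below the controls, and the fall at 96 h was −0.69 ± 0.083 (1.62-fold, adjusted p = 0.000782). It was called under every alternative run.

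Zfp809, which silences retroviruses through their proline tRNA primer site, read 10.32 and 10.25 in controls, 9.97 and 9.87 with siRNA 1, and 10.05 and 9.94 with siRNA 2. It fell by 0.33 ± 0.068 on the log2 scale (adjusted p = 0.00955) and was not called without control replicate 1 (adjusted p = 0.0711). Zfp37 rose by 0.43 ± 0.089 (adjusted p = 0.00988) but was not called without control replicate 1 (adjusted p = 0.0675). The third fall of the list was that of Zfp59, given above. Zfp568, which in mouse embryos represses a placental transcript of Igf2, differed by −0.0006 ± 0.12 (adjusted p = 0.999). Zfp445, which works beside Zfp57 at imprinted loci, differed by −0.05 ± 0.11 (adjusted p = 0.771). The retroelement repressors Zfp819 (−0.27 ± 0.086, adjusted p = 0.0538) and Zfp708 (0.12 ± 0.079, adjusted p = 0.32) were not called either, and Zfp932 was not analysed here.

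Among members listed for pluripotency or self-renewal, 9 of 12 were measured, 0 rose and 4 fell, with a median log2 difference of −0.13. Over all genes 1836 of 15267 rose and 1864 fell, so few rises would be counted among 9 genes at that share. By limma at an unadjusted p below 0.05, 1 was higher and 4 were lower, beside 5520 of 15267 genes in either direction. Whether this list differs from all genes was not tested. The falls called were those of Zfp57, Zfp296, Zfp322a and Zfp553. Zfp296, a binding partner of Klf4, read 10.04 on both controls, 9.47 and 9.56 with siRNA 1, and 9.90 on both siRNA 2 arrays. The arrays of siRNA 1 lay furthest below the controls, and the mean difference of both duplexes was −0.33 ± 0.062 (adjusted p = 0.00624). It was −0.53 ± 0.072 with siRNA 1 (adjusted p = 0.00154) and −0.14 ± 0.072 with siRNA 2, which was not called (adjusted p = 0.234). Zfp322a, an activator of Pou5f1 and Nanog in mouse ES cells, fell by 0.26 ± 0.059 on the log2 scale (adjusted p = 0.0139). It was not called without control replicate 1 or 2 (adjusted p = 0.0687 and 0.0861). Zfp553 (−0.26 ± 0.081, adjusted p = 0.0495) stood at the threshold and lost its call under most alternatives, control replicates 1 and 2 and siRNA 1 replicates 1 and 2 left out among them (adjusted p = 0.0609, 0.297, 0.0511 and 0.120) and siRNA 2 replicate 2 (0.115) or either 48 h array (0.0772).

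Zfp281, a transcription factor of the pluripotency network, differed by 0.11 ± 0.067 (adjusted p = 0.259). Zfp462, which helps keep heterochromatin at lineage genes, differed by 0.24 ± 0.095 (adjusted p = 0.107). The spindle factor Zfp207 (0.13 ± 0.089), Zfp219 (−0.13 ± 0.069) and Zfp706 (0.14 ± 0.064), known to restrain ES cell self-renewal, were not called. Zfp143, Zfp217 and Zfp131 were not analysed here. On the same arrays 2 of the 10 ES cell markers rose and 6 fell.

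Of 19 members listed as regulators of differentiation, 18 were measured, 4 rose and 3 fell, and their median was −0.03. Beside them, 1836 of all 15267 genes rose and 1864 fell. Zfp521, a driver of neural fate in ES cells, read 4.26 and 4.39 in controls, 4.74 and 4.77 with siRNA 1, 4.74 and 4.65 with siRNA 2, and 4.88 and 5.20 at 48 h. It rose by 0.40 ± 0.097 (adjusted p = 0.0201) and was not called without control replicate 1 or siRNA 1 replicate 2 (adjusted p = 0.123 and 0.0524). Its relative Zfp423, a Smad partner in BMP signalling, rose by 0.27 ± 0.076 (adjusted p = 0.0359) and was not called without any 1 of control replicates 1 and 2, siRNA 1 replicate 1, siRNA 2 replicate 1 and either 48 h array (adjusted p from 0.053 to 0.135). Zfp365, whose human counterpart is a p53 target linked to genome stability, rose by 0.38 ± 0.065 (adjusted p = 0.00451).

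The other rise of that list was Zfp827, and the falls were Zfp704, Zfp385a and Zfp536. Zfp536 (−0.40 ± 0.117, adjusted p = 0.0399) lost its call without control replicate 2, siRNA 1 replicate 2, either siRNA 2 array or either 48 h array (adjusted p from 0.0606 to 0.278). The adaptor genes Zfp503 (−0.09 ± 0.115) and Zfp703 (0.02 ± 0.078) were not called. Zfp341, whose human counterpart is needed for STAT3 transcription, differed by −0.06 ± 0.084 (adjusted p = 0.656).

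Of 13 members listed for chromatin complexes, 12 were measured, 4 rose and 0 fell, with a median log2 difference of 0.14. Over all genes 24.2% were called in this comparison, 1836 of 15267 higher and 1864 lower, so few falls would be counted among 12 genes at that share. By limma at an unadjusted p below 0.05, 5 were higher and 0 lower, beside 5520 of 15267 genes in either direction. The 4 were Zfp711, Zfp518a, Zfp518b and Zfp827. Zfp518a read 9.81 and 9.67 in controls, 10.22 and 10.20 with siRNA 1, and 10.09 and 10.25 with siRNA 2, so that all siRNA arrays were above both controls (0.45 ± 0.074, adjusted p = 0.00363). Zfp518b, whose human counterpart binds the histone methyltransferase G9a, rose by 0.25 ± 0.068 (adjusted p = 0.0307), and was not called without either control, siRNA 1 replicate 2 or either siRNA 2 array (adjusted p from 0.0508 to 0.161). Zfp827, whose human counterpart recruits the NuRD complex to telomeres, rose by 0.42 ± 0.090 (adjusted p = 0.0112) and was not called without control replicate 2 (adjusted p = 0.0837). The partners Zfp592 (−0.12 ± 0.093), Zfp687 (0.03 ± 0.086) and Zfp532 (0.14 ± 0.073) form 1 complex with Zmynd8, and none was called. Zfp410, known as an activator of the NuRD remodeller gene Chd4, differed by 0.14 ± 0.078 (adjusted p = 0.243).

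Of 15 members listed for RNA, ribosome or ubiquitin functions, 14 were measured, 2 rose and 5 fell, with a median of 0.02. Beside them, 1836 of all 15267 genes rose and 1864 fell. Zfp326, a subunit of a complex that joins transcript elongation to splicing, read 9.28 and 9.37 in controls, 9.69 and 9.68 with siRNA 1, and 9.80 and 9.77 with siRNA 2. It rose by 0.41 ± 0.067 (adjusted p = 0.00343), with no overlap between the siRNA and control arrays of 96 h. Zfp36, or tristetraprolin, rose by 0.22 ± 0.061 (adjusted p = 0.0313) and was not called without either control, either siRNA 1 array or siRNA 2 replicate 1 (adjusted p from 0.0630 to 0.165). Zfp598, the ubiquitin ligase that marks collided ribosomes, fell by 0.29 ± 0.070 on the log2 scale (adjusted p = 0.0201). It was not called without either control, siRNA 1 replicate 2 or siRNA 2 replicate 2 (adjusted p from 0.0526 to 0.105). The RNA-binding Zfp106, needed by mouse motor neurons, fell by 0.28 ± 0.067 (adjusted p = 0.0188) and was not called without control replicate 1 or 2 (adjusted p = 0.125 and 0.056). Zfp385a, Zfp277 (−0.27 ± 0.065) and Zfp318 (−0.40 ± 0.101) were the other falls. Zfp277 was not called without control replicate 1 or 2 (adjusted p = 0.0847 and 0.0976). Zfp318, which controls IgD in mouse B cells, was not called without either control, siRNA 1 replicate 2 or siRNA 2 replicate 2 (adjusted p from 0.0573 to 0.117).

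The corepressor machinery of KRAB proteins was set beside the members. Of 28 listed genes 21 were measured, 1 rose and 2 fell, and the median log2 difference was −0.091. Beside them, 1836 of all 15267 genes rose and 1864 fell. Trim28 itself differed by −0.11 (adjusted p = 0.275). Pphln1, a subunit of the HUSH silencing complex, rose by 0.80 ± 0.084 (adjusted p = 0.000401), Atf7ip, the cofactor of Setdb1, fell by 0.33 ± 0.070 (adjusted p = 0.0117), and the histone demethylase gene Kdm1a fell by 0.25 ± 0.067 (adjusted p = 0.0306). Atf7ip was not called without control replicate 1 (adjusted p = 0.0948), and Kdm1a was not called with any 1 of the 6 arrays of 96 h left out (adjusted p from 0.058 to 0.135).

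At 96 h the lung marker mean was 7.29 and 7.34 on the control arrays and 6.91 to 7.38 on the siRNA arrays. With that mean as a covariate 60 members were called for both siRNAs against control, in place of 80. Over all genes 2706 were called in place of 3700. Among the genes named here, the calls lost were those of Zfp677, Zfp607b, Zfp579, Zfp553, Zfp536, Zfp518b, Zfp318, Zfp106, Zfp598, Zfp30 and Kdm1a (adjusted p from 0.0523 to 0.158). All 11 differences kept their direction, and the median SE over all genes rose from 0.082 to 0.0888. Zfp553 went from −0.26 to −0.19, Zfp318 from −0.40 to −0.32, Zfp677 from 0.81 to 0.70, Zfp598 from −0.29 to −0.25 and Zfp607b from −0.55 to −0.52. Zfp579 went from −0.45 to −0.50 and Zfp536 from −0.40 to −0.38, while Zfp106 (−0.28), Zfp518b (0.25), Zfp30 (−0.41) and Kdm1a (−0.25) had the same differences to 2 decimals. Zfp423, Zfp536 and Zfp553 were not called after quantile normalization (adjusted p = 0.0508, 0.0509 and 0.0509).

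Taken singly, siRNA 1 against control gave 38 members higher and 36 lower, 25.3% of the members beside 22.8% of all genes (11.6% higher and 11.2% lower). With siRNA 2, 30 were higher and 16 lower, 15.7% of the members beside 15.7% of all genes (8.01% higher and 7.66% lower). The comparisons share both control arrays, so their values are given side by side. Zfp608 rose by 1.26 ± 0.095 with siRNA 1 and by 1.04 ± 0.095 with siRNA 2. Zfp711 rose by 1.21 ± 0.090 and 1.06 ± 0.090, and Zfp704 fell by 1.09 ± 0.117 with each. Zfp354b fell by 1.13 ± 0.090 and 0.69 ± 0.090, Zfp28 by 0.97 ± 0.139 and 0.76 ± 0.139, and Zfp57 by 0.89 ± 0.096 and 0.49 ± 0.096. Zfp607b differed by −0.96 ± 0.165 with siRNA 1 (adjusted p = 0.00478) and by −0.15 ± 0.165 with siRNA 2 (adjusted p = 0.594). Zfp677 rose by 0.84 ± 0.230 with siRNA 1 (adjusted p = 0.0322), a call lost without control replicate 2 or either siRNA 1 array (adjusted p = 0.150, 0.135 and 0.0887). Zfp612 rose by 0.85 ± 0.168 and 0.81 ± 0.168, calls lost without siRNA 1 replicate 1 (adjusted p = 0.0568) and without control replicate 2 or siRNA 2 replicate 2 (0.0615 and 0.0931). Zfp946 rose by 0.76 ± 0.125 with siRNA 1 and by 0.55 ± 0.125 with siRNA 2, the latter not called without control replicate 1 or either siRNA 2 array (adjusted p = 0.107, 0.0586 and 0.116). Zfp800 rose by 0.62 ± 0.078 with siRNA 2. Among the falls with siRNA 2, Zfp28, Zfp385a (−0.53 ± 0.095) and Zfp318 (−0.54 ± 0.116) lost their calls without siRNA 2 replicate 2 (adjusted p = 0.0535, 0.0576 and 0.106), Zfp318 also without either control (0.0536 and 0.0804). With the lung covariate the calls of Zfp677 with siRNA 1 and of Zfp612, Zfp946 and Zfp318 with siRNA 2 were lost (adjusted p = 0.102, 0.0544, 0.0642 and 0.0551), at differences of 0.74, 0.73, 0.54 and −0.46.

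The test of the difference between the duplexes called 0 members by limma, beside 0.0197% of all genes. An unadjusted p below 0.05 was found for 33 of 293 members, beside 1625 of all 15267 genes. Zfp296 was called with an intensity trend in the spread and with dim genes left out (adjusted p = 0.0141 and 0.0175), at −0.39 for siRNA 1 minus siRNA 2. Zfp607b was called with the trend (−0.81, adjusted p = 0.0457) and Zfp57 without dim genes (−0.40, adjusted p = 0.0423). All 3 were lower with siRNA 1. The number of members called against control depended on single arrays. It was 33 to 42 for siRNA 1 without either control or either siRNA 1 array, and 11 to 23 for siRNA 2 without either control or either siRNA 2 array.

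In the comparisons with the 48 h arrays the members' calls ran more to one direction than those of all genes. In siRNA 1 at 96 h against 48 h, 95 members were higher and 26 lower, or 32.4% and 8.87% of the members beside 19.2 and 18.5 percent of all genes (41.3% beside 37.6% in all). The median log2 difference was 0.080 over the members and −0.032 over all genes. Between siRNA 1 at 48 h and the control of 96 h, 30 members were higher and 100 lower, or 10.2% and 34.1% beside 17.1 and 18.4 percent (44.4% beside 35.4% in all). Here the medians were −0.13 and 0.0031. These comparisons share the 48 h arrays. The zinc finger genes with other names gave 21 higher and 14 lower in the first (23.1% and 15.4%). In the second they gave 6 higher and 26 lower (6.59% and 28.6%), and so leaned the same way as the members. Whether members differ from the other zinc finger genes in this was not tested.

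The lung markers differed between the same groups, so time and the lung transcripts cannot be told apart in these comparisons. With the mean of the lung markers as a covariate, 0 of 15267 genes were called in either comparison by limma, while the median SE rose from 0.0946 to 0.434 and 0.477. Without siRNA 1 48 h replicate 2 the members called were 80 and 76, in place of 121 and 130. With any 1 array left out, 69 of the 121 and 63 of the 130 were called throughout. In bulk RNA, fewer cells of a type and less RNA per cell cannot be told apart.

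**Figure D3:**
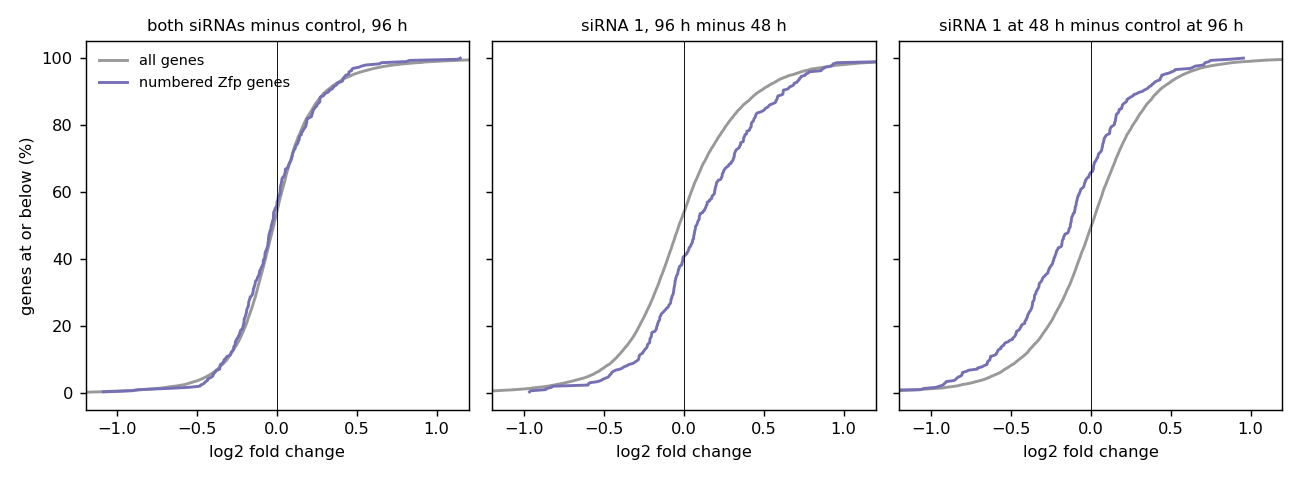
Cumulative percent of genes at or below each log2 fold change, for the 293 members and all 15267 genes, in 3 comparisons. The curves run together for siRNA against control at 96 h (medians −0.035 and −0.021), while the members lie to the right for 96 h minus 48 h (0.080 and −0.032) and to the left for 48 h minus control (−0.13 and 0.0031).

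Zfp568 gave the largest difference of any member with time. It read 9.17 and 9.06 in controls, 9.14 and 9.34 with siRNA 1 at 96 h, 9.19 and 8.79 with siRNA 2, and 6.92 and 6.83 at 48 h. The 6 arrays of 96 h lay within 0.54 of each other, and the lowest of them was 1.87 above the higher 48 h array on the log2 scale. The difference was 2.36 ± 0.13 for 96 h over 48 h (5.14-fold, adjusted p = 1.9e-05) and −2.24 ± 0.13 for 48 h against control. Zfp605 read 5.65 and 5.75 in controls, 5.56 and 5.19 with siRNA 1, 5.02 and 5.44 with siRNA 2, and 4.34 and 3.79 at 48 h. It was 1.31 ± 0.21 higher at 96 h than at 48 h (adjusted p = 0.00186).

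Zfp608 was 1.84 ± 0.095 higher at 96 h, Zfp946 1.25 ± 0.125 and Zfp692 0.96 ± 0.072. Zfp458 and Zfp866 were 1.07 ± 0.115 and 0.97 ± 0.076 lower at 48 h than in the control, and Zfp74 was 1.05 ± 0.072 lower. Zfp866 illustrates the pattern, with 8.97 to 9.10 on all 6 arrays of 96 h and 8.05 and 8.11 at 48 h. Of the repressors named above, Zfp445 was 0.58 ± 0.131 higher at 96 h than at 48 h (adjusted p = 0.0092), a call lost without 48 h replicate 2 (adjusted p = 0.0654). Zfp638, whose human counterpart silences unintegrated retroviral DNA, was 0.66 ± 0.083 higher (adjusted p = 0.000636). Zfp322a was 0.59 ± 0.068 higher and Zfp57 0.36 ± 0.096 lower, the latter not called without siRNA 1 96 h replicate 2 or either 48 h array (adjusted p = 0.126, 0.0942 and 0.0688).

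Other members were higher at 48 h. Zfp229 read 9.02 and 9.03 in controls, 8.80 and 8.81 with siRNA 1 at 96 h, and 9.76 and 9.79 at 48 h. It was 0.97 ± 0.082 lower at 96 h than at 48 h (adjusted p = 1.0e-04). Zfp704 was 0.96 ± 0.117 lower, Zfp536 0.87 ± 0.136, Zfp810 0.86 ± 0.103 and Zfp516, a driver of brown fat genes in mouse, 0.83 ± 0.167. Against the control, the largest rises at 48 h were Zfp516 (0.96 ± 0.167), Zfp146 (0.87 ± 0.117), Zfp229 (0.75 ± 0.082), Zfp438 (0.74 ± 0.098) and Zfp777 (0.72 ± 0.110).

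**Figure D4:**
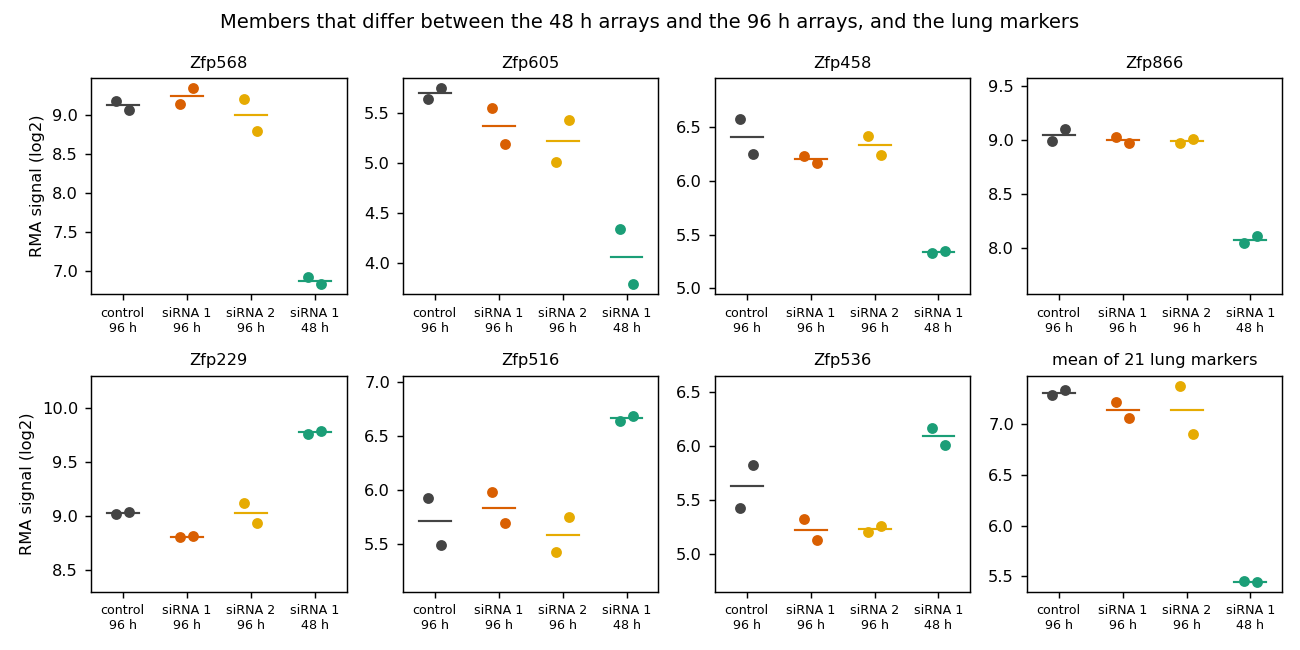
RMA signal (log2) of 7 members, and the mean of 21 lung markers, on each of the 8 arrays, with lines for the mean of the 2 arrays of a group; each panel has its own range. Zfp568, Zfp605, Zfp458 and Zfp866 are lower on both 48 h arrays than on any 96 h array, as is the lung marker mean, and Zfp229, Zfp516 and Zfp536 are higher.

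Counts by list ran as follows in siRNA 1 at 96 h against 48 h, where 37.6% of all genes were called (19.2% higher and 18.5% lower). Of the 11 repressors of imprinted loci and retroelements 3 were higher (Zfp568, Zfp445 and Zfp661) and 1 lower (Zfp57). Of 9 pluripotency members 2 were higher and 1 lower, of 18 regulators of differentiation 1 and 3, of 12 chromatin members 3 and 0, and of 14 members with RNA functions 5 and 1. Zfp661 lost its call without siRNA 1 96 h replicate 1 or 48 h replicate 2 (adjusted p = 0.0895 and 0.105). Among the 21 corepressor genes 7 were higher and 5 lower at 96 h. The remodeller gene Atrx, a partner of Daxx, was 2.02 ± 0.154 higher, Dppa3 1.19 ± 0.116, the NuRD remodeller gene Chd4 1.11 ± 0.112 and the HUSH subunit gene Pphln1 0.65 ± 0.097. Trim28 was 0.28 ± 0.075 lower and Ehmt2, the G9a gene, 0.50 ± 0.071 lower. The call of Trim28 was lost without siRNA 1 96 h replicate 2 or either 48 h array (adjusted p = 0.105, 0.0731 and 0.0689).

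The members share their place in the genome as well as their name. On chromosome 7 lay 77 of the 293 (26.3%, beside 7.93% of all genes), on chromosome 17 lay 38 (13.0% beside 4.7%) and on chromosome 13 lay 22. Counting members with at most 2 other protein-coding genes between them as neighbours, 86 members lay in 11 runs of 4 or more. Members in such runs gave 11 rises and 13 falls between siRNA and control, and the 130 members without a neighbour gave 21 and 17. These are 12.8% and 15.1% of the members in runs and 16.2% and 13.1% of those without a neighbour, near the share over all genes, of which 1836 of 15267 rose and 1864 fell.

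A run on chromosome 17, chosen after its values were seen, held 14 measured members of 18 numbered genes. In it 6 rose with the siRNAs at 96 h and 0 fell, and 8 were not called. The rises were Zfp677, Zfp54 (0.47 ± 0.079), Zfp52 (0.35 ± 0.072), Zfp948 (0.45 ± 0.070), Zfp944 (0.30 ± 0.066) and Zfp946. Zfp948 read 7.63 and 7.58 in controls, 8.04 and 8.17 with siRNA 1, 7.99 and 8.04 with siRNA 2, and 7.43 and 7.33 at 48 h, with all siRNA arrays of 96 h above the controls and the 48 h arrays below. Zfp52 was not called without control replicate 2 (adjusted p = 0.0773), and Zfp944 without control replicate 1 or 2 (adjusted p = 0.0718 and 0.0709). At 96 h against 48 h, 9 of the 14 were higher and 2 lower, the latter Zfp51 and Zfp229. In that comparison 32.4% of all members were higher and 8.87% lower, beside 19.2% and 18.5% of all genes. Whether their probes tell these paralogues apart was not tested.

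A run on chromosome 7, also chosen after its values were seen, held 11 measured members of 15, and there the members parted. Zfp82 rose between siRNA and control (0.45 ± 0.096), while Zfp30 (−0.41 ± 0.103), Zfp74 (−0.48 ± 0.063) and Zfp14 (−0.37 ± 0.080) fell. Over all members 14.7% rose and 12.6% fell there. Zfp568, with its 2.36 difference with time, lies in this run next to Zfp74 and Zfp14. Zfp14 differed by −0.07 ± 0.092 between 96 h and 48 h and was not called. Zfp82 was not called without control replicate 1 (adjusted p = 0.0686) and Zfp14 without control replicate 2 (adjusted p = 0.0848). Zfp30 was not called without either control, siRNA 1 replicate 1 or siRNA 2 replicate 2 (adjusted p from 0.0544 to 0.108).

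**Figure D5:**
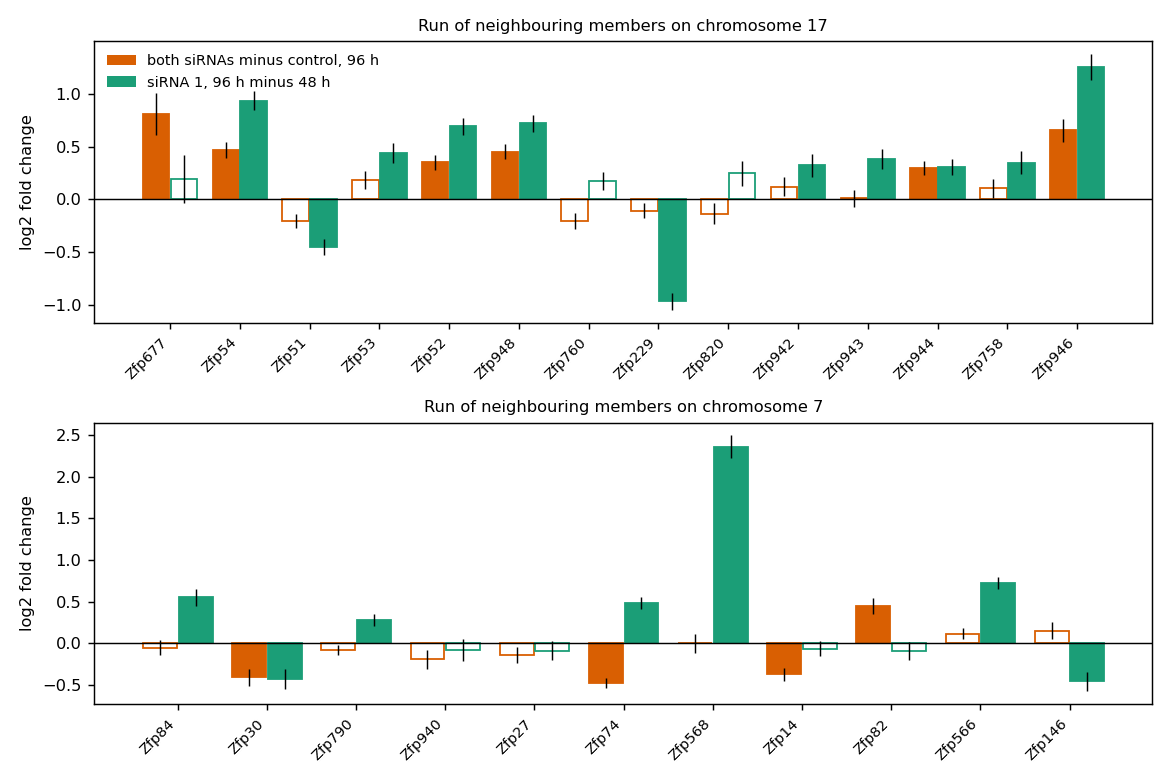
Log2 fold change (bars) with its SE (lines) for the measured members of a run on chromosome 17 (14 members) and one on chromosome 7 (11 members), in gene order, for both siRNAs minus control at 96 h and for siRNA 1 at 96 h minus 48 h; filled bars are called at an adjusted p below 0.05 and open bars are not. On chromosome 17, 6 of 14 members rise with the siRNAs and 0 fall, beside 14.7% and 12.6% of all members. On chromosome 7 Zfp568 stands out with 2.36 for 96 h minus 48 h. Both runs were chosen after their values were seen.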

How the data were processed

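Total RNA was extracted with a column kit, labelled with biotin by in vitro transcription and hybridised to Affymetrix arrays, per the labels' protocols. The authors deposited 1 log2 value for each probe set on each array, made with RMA, per the submitters' processing notes, which give no version. RMA subtracts background, forces all arrays to share a distribution and combines the probes of a set. That the scale is log2 follows from the values, which span 2.60 to 15.3. Of 16556 probe sets, 64 were controls, 1222 were not named by the platform annotation, and 15270 had 1 symbol, 293 of them numbered Zfp genes. Where a gene had several probe sets (3 genes) the one with the highest mean was kept, which left 15267 genes. Precision is limited by the number of arrays, and without scanner signals no gene could be called undetected.

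A group-means model over all 8 arrays was fitted with limma 3.58.1 in R 4.3.3 (4 residual and 4.13 prior degrees of freedom). Each of 6 comparisons was adjusted by Benjamini-Hochberg over all 15267 genes, and a gene was called at a two-sided adjusted p below 0.05. Values after ± are standard errors. The fit was tested on simulated data. The mean of both siRNAs against the control was the first comparison. Alternatives were a replicate block, quantile normalization, median centring, an intensity trend or robust option in the spread, dim genes or the 48 h arrays left out, the lung marker mean as a covariate, all probe sets, and each array left out in turn ("without either control" means without 1 or without the other). Whether replicate numbers pair the samples was checked. The first replicates' deviations correlated across genes at −0.056 to 0.140, over 0.1 in 1 of 6 pairs of groups, so the numbers were not taken as pairs.

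The members and the gene lists, written from general knowledge, were chosen with earlier results of these data known. Members named are the 10 largest rises and 10 largest falls of the first comparison among called genes without overlap between arrays, the 5 and 5 of each other comparison, and a panel of 29 genes of known role, 25 of them measured. Further members named in the lists and runs were chosen after their values were seen. Members were not ranked by level, since levels of different probe sets are not comparable. Promoters came from RefSeq (GRCm38.p6), and 244 of 293 members matched. Protein sequences were not used here, so finger numbers and KRAB domains were not counted.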

Additional observations from a re-analysis of the deposited data

Results flagged for a closer look

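For 7 of the named members, siRNA 1 was called in opposite directions at 96 h and 48 h against the same 96 h control. The difference between the times was also called by limma. Opposite calls against 1 shared control make that nearly certain, so it adds no support. Over all genes 22.8% and 35.4% were called in these comparisons, and how many genes had opposite calls was not counted. No control of 48 h was analysed here, the lung marker mean differed between the same arrays (6.91 to 7.38 at 96 h, 5.45 at 48 h), and neither point's part in the result was tested. With that mean as a covariate 0 of 15267 genes were called by limma, so the calls of these 7 could not be read there. The differences between the times were then 2.36 for Zfp608, 1.32 for Zfp946, 1.37 for Zfp54, 1.06 for Zfp52, 0.73 for Zfp692, 0.32 for Zfp36 and −1.55 for Zfp810.

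Zfp608 was higher than the control at 96 h (1.26) and lower at 48 h (−0.58), a difference of 1.84 ± 0.095 on the log2 scale (adjusted p = 1.3e-05). Zfp946 gave 0.76 and −0.49, a difference of 1.25 ± 0.125 (adjusted p = 0.000212). Its value at 48 h was not called without control replicate 2 or 48 h replicate 2 (adjusted p = 0.0951 and 0.117). Zfp54 and Zfp52, from the same run on chromosome 17, differed by 0.94 ± 0.092 (0.57 and −0.37) and by 0.69 ± 0.084 (0.35 and −0.34). The value of Zfp54 at 48 h was not called without control replicate 1 or 48 h replicate 2 (adjusted p = 0.0857 and 0.10). That of Zfp52 was not called without control replicate 1 or 48 h replicate 1 (adjusted p = 0.0805 and 0.0883), nor its value at 96 h without control replicate 2 or siRNA 1 replicate 2 or with the lung covariate (0.0966, 0.109 and 0.0572).

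Zfp692 gave 0.35 and −0.61, a difference of 0.957 ± 0.072 (adjusted p = 6.1e-05), with its value at 96 h not called without control replicate 1 or siRNA 1 replicate 1 (adjusted p = 0.0563 and 0.0581). Zfp36 gave 0.31 and −0.26, a difference of 0.576 ± 0.071 (adjusted p = 0.000547), and without any of the arrays compared its value at 96 h or at 48 h was not called (adjusted p from 0.0523 to 0.0960). Zfp810 ran the other way, with −0.54 at 96 h and 0.32 at 48 h, a difference of −0.861 ± 0.103 (adjusted p = 0.000494). Its value at 48 h was not called without any single control or 48 h array (adjusted p from 0.0968 to 0.171).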

How the results depend on the processing

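Of the values of named genes recomputed under the alternatives, 1871 kept direction and side of the threshold, 164 were no longer called, 9 became called and 4 changed sign. The 4, all with the lung marker mean as a covariate, were Zfp704 (0.15), Zfp516 (0.031) and Zfp445 (−0.55) for 96 h against 48 h and Zfp146 (−0.19) for 48 h against control; there it raised the SE several fold. With that covariate the members called were 60 for both siRNAs, 49 for siRNA 1 and 24 for siRNA 2. In both comparisons with the 48 h arrays 0 were called, and the members' medians were 0.20 (96 h against 48 h) and −0.21. The test of siRNA 1 against siRNA 2 called 2 members with an intensity trend and 2 without dim genes. Leaving out dim genes, which kept 164 members, gave medians of −0.0064 for both siRNAs, 0.0030 for siRNA 2, 0.18 for 96 h against 48 h and −0.21 for 48 h against control. For these last 2 comparisons quantile normalization gave 0.10 and −0.15 and median centring 0.10 and −0.145. With 1 array left out, members called ranged from 40 to 73 for both siRNAs, 33 to 69 for siRNA 1, 11 to 38 for siRNA 2, 0 to 0 between the siRNAs, 80 to 123 for 96 h against 48 h and 76 to 130 for 48 h against control. The medians then ranged, in the same order, from −0.040 to −0.020, −0.042 to −0.021, −0.029 to −0.023, −0.032 to −0.0059, 0.061 to 0.106 and −0.16 to −0.12. With the replicate block the members called were 73 for both siRNAs, 67 for siRNA 1, 41 for siRNA 2, 118 for 96 h against 48 h and 125 for 48 h against control; among named genes it ended the calls of Zfp536 and Zfp553 for both siRNAs (adjusted p = 0.0583 and 0.0703). The 2 arrays of each group limit all of these counts. The cause of the changes was not tested.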

Other observations

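The promoters of the members were searched for 4 motifs on both strands, chosen after expression values were known, as a description with no test. CGGAAGTG, the form bound by ETS factors such as Gabpa, stood in 30 of 244 members' promoters (12.3%), beside 5.74% of the 12273 promoters of measured genes and 3.5% of all 27025. It was in 5 of 35 promoters of members that rose with the siRNAs at 96 h, 3 of 32 of those that fell and 22 of 177 of those not called. Of the promoters shown, those of Zfp677 and Zfp605 hold it. TGCCGC, the core bound by Zfp57, was in 19.3% of members' promoters beside 16.9% of measured genes', the GC box GGGCGG in 48.0% beside 56.4%, and the E-box CACGTG in 7.79% beside 9.29%. Letters of GGGCGG can overlap CGGAAGTG and the reverse complement of TGCCGC. A match does not show that a factor binds.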
